A study of Mus musculus with 16 samples.

Results

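Core enzymes of the tricarboxylic acid (TCA) cycle that are not themselves known as targets of matrix Ca2+ were followed through 9 genes: Cs, Idh1, Idh2, Dld, Sucla2, Suclg1, Suclg2, Fh1 and Mdh2. They were chosen by name among the 25006 genes of the count tables, and all 9 passed the filter on low counts. The libraries held ribosome-bound mRNA of dopaminergic neurons of the substantia nigra pars compacta (SNc), 1 library per mouse, from 8 mice per genotype, labelled as postnatal day 45 and 30 days after AAV injection. The comparison asks whether loss of the mitochondrial calcium uniporter (MCU) went with a change in the mRNA of the 9 genes. MCU is the channel that lets Ca2+ into the matrix, and the TCA cycle feeds electrons to oxidative phosphorylation.

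The control genotype was DAT-Cre +/- and the knockout genotype, called MCU-KO, was DAT-Cre+/- MCU fl/fl. Both carried Cre under the dopamine transporter gene and an injected Cre-dependent vector for a tagged ribosomal protein (RiboTag), whose immunoprecipitation enriches mRNA of the cells that express Cre. Only the MCU-KO mice carried floxed Mcu. The control mice came from a separate cross of DAT-Cre with C57/BL6 mice and were therefore not littermates of the MCU-KO mice, so genotype and breeding cannot be told apart. In such bulk libraries fewer cells of a type and less RNA per cell cannot be told apart either.

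Citrate synthase (Cs) condenses acetyl-CoA with oxaloacetate to open the cycle, fumarase (Fh1) hydrates fumarate to malate, and mitochondrial malate dehydrogenase (Mdh2) closes the cycle by oxidizing malate to oxaloacetate. Succinyl-CoA ligase makes a nucleoside triphosphate directly. Its alpha subunit (Suclg1) pairs with either of 2 beta subunits, Sucla2 for the ATP-forming enzyme and Suclg2 for the GTP-forming enzyme. Brain is known for the ATP-forming enzyme, and liver and kidney for the GTP-forming enzyme. Some members fit the name of the group only in part: Idh1 is the cytosolic and peroxisomal NADP-dependent isocitrate dehydrogenase, Idh2 is its mitochondrial NADP-dependent counterpart while the canonical step belongs to the NAD-dependent Idh3 complex, and Dld is a subunit shared by the pyruvate and oxoglutarate dehydrogenase complexes, which do respond to Ca2+.

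Within the group, 2 comparisons set closely related proteins side by side, so their coding sequences were aligned to see whether reads could be exchanged between them. The coding sequences of Sucla2 (1389 bases) and Suclg2 (1299 bases) were identical at 61.1% of 1292 aligned bases, and those of Idh1 (1242 bases) and Idh2 (1356 bases) at 69.3% of 1223 aligned bases. The longest aligned run without a difference was 12 bases for the ligase pair and 19 bases for the isocitrate dehydrogenase pair. The capitals mark these runs, written 5′ to 3′ with 30 bases of coding sequence on either side from the GENCODE M21 transcripts of GRCm38:
Sucla2: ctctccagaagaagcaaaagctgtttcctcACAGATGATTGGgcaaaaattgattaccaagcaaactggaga
Suclg2: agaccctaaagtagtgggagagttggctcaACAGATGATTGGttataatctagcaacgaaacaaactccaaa
Idh1: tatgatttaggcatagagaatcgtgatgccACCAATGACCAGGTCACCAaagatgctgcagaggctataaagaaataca
Idh2: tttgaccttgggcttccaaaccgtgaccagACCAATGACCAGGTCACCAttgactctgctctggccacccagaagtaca
The letters on either side of the capitals differ at many positions. No 50-base stretch was shared between the members of either pair, and Idh1, Idh2, Sucla2, Fh1 and Mdh2 shared no such stretch with any annotated transcript of another gene. Suclg2 did: 15.96% of its 50-base stretches also occurred in Gm15163, which the count tables do not list, so its count is uncertain to that extent. The shares were 2.34% for Dld, 2.01% for Cs (all with Csl) and 0.258% for Suclg1.

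The libraries held between 18999107 and 22016362 counts in control mice and between 14129527 and 20582204 in MCU-KO mice, the lowest being MCU-KO mouse 8. All 10 dopaminergic markers had counts in every mouse, and their summed level was 13628 to 17181 CPM (counts scaled to a common library total) in control and 12084 to 19410.5 CPM in MCU-KO mice. Astrocyte markers summed to 470.4 to 890.2 CPM and 540.5 to 1123 CPM, and oligodendrocyte markers to 2476 to 5019 CPM and 3026 to 5929 CPM, in control and MCU-KO mice respectively. Mcu itself ranged from 120.3 to 828 normalized counts in control mice (median 401) and from 5.82 to 410.1 in MCU-KO mice (median 246). The genotypes overlapped in Mcu although 7 of 8 MCU-KO mice lay below the control median, and the log2 fold change was -1.19 (95% CI -2.41 to 0.04). The whole-gene count includes exons that may lie outside the deleted part, so it is a weak check of the labels. The study checked the knockout in other ways. It reported lower Mcu mRNA in MCU-KO mice by a PCR assay of RiboTag mRNA, and reduced Ca2+ uptake into their mitochondria.

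None of the 9 members passed the test between genotypes. By the quasi-likelihood test of edgeR, adjusted by Benjamini-Hochberg over the 12390 genes tested, 0 of 9 had an adjusted p under 0.05, against 0.178% of all genes (0.0888% higher and 0.0888% lower). At an unadjusted p under 0.05 there were again 0 of 9, against 4.41% of all genes (2.25% higher and 2.16% lower). DESeq2, which called 0.557% of all genes, and limma-voom, which called 0.218%, also called 0 of 9, with 0 of 9 at an unadjusted p under 0.05 in each. The counts of the genotypes overlapped for all 9 members (0.258% of all genes did not overlap). The fitted fold change was above 0 for 5 members and below 0 for 4, with a median of 0.01 on the log2 scale, where the median of all genes was 0.00. For 8 members the 95% confidence interval lay within a 2-fold change either way, and for Cs, Sucla2, Suclg1 and Mdh2 it lay within 1.5-fold. The exception to the wider limit was Suclg2.

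**Figure D1:**
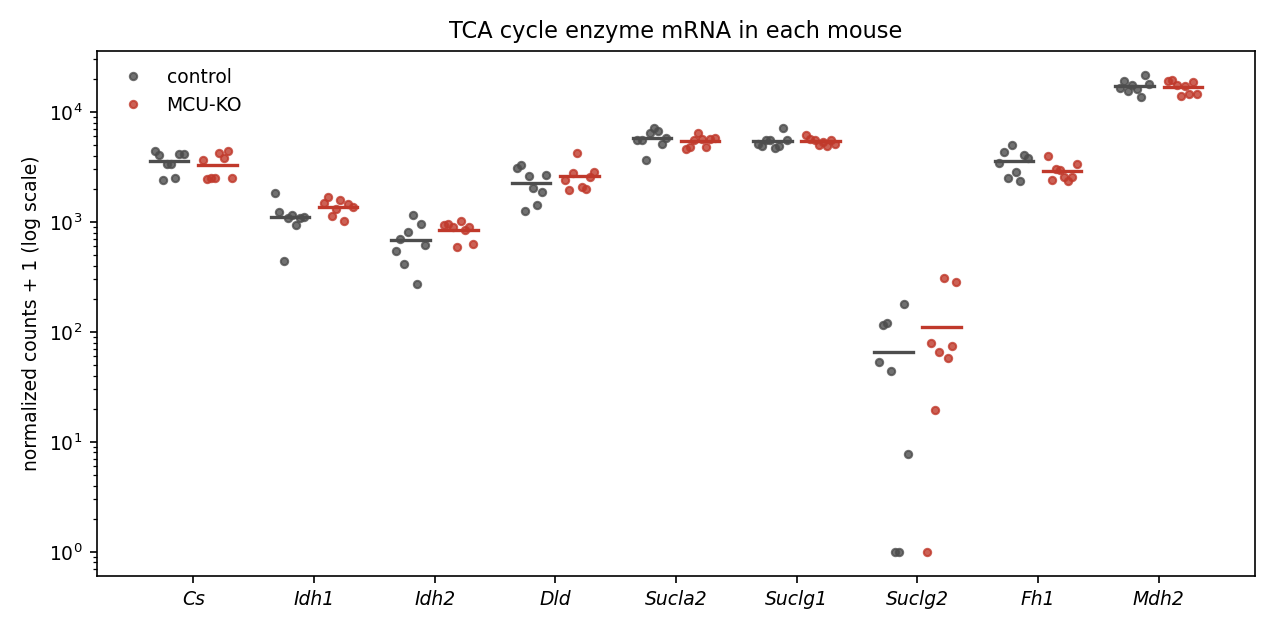
Normalized counts plus 1 (log axis) of the 9 members in each of the 8 control and 8 MCU-KO mice; each point is 1 mouse and each bar the mean of a genotype. The genotypes overlap for every member, Mdh2 is highest with 13662 to 21841 normalized counts, and Suclg2 is the lowest and most scattered, with 3 mice at 0.

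For the enzymes that open and close the cycle, no difference between genotypes passed the test. Cs (chromosome 10, 128337734 to 128362479, plus strand, GRCm38) had 2406 normalized counts in its lowest control mouse, 3732 at the median and 4389.6 in its highest, against 2474, 3079 and 4414 in MCU-KO mice. The ranges of both genotypes were nearly the same although the middle of the MCU-KO mice was lower. The means were 3549 ± 764 and 3268 ± 854 normalized counts (SD, n = 8 each), and the log2 fold change of MCU-KO over control was -0.12 (SE 0.16, 95% CI -0.45 to 0.21). It lay between -0.20 (without MCU-KO mouse 7) and -0.068 (without control mouse 1) when each mouse was left out.

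Mdh2 (chromosome 5, 135778480 to 135790398, plus strand) ran from 13662 through a median of 17004 to 21841 normalized counts in control mice and from 14078 through 17417 to 19428 in MCU-KO mice. All MCU-KO mice lay inside the control range. The means were 17272 ± 2453 and 16871 ± 2156 normalized counts (SD, n = 8 each), and the log2 fold change was -0.03 (95% CI -0.23 to 0.16).

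Fh1 (chromosome 1, 175600374 to 175625635, minus strand) had the smallest unadjusted p of the group. Its normalized counts were 2375, 3639 and 4972 (lowest, median, highest) in control mice and 2331, 2785 and 3972 in MCU-KO mice. Of the MCU-KO mice, 7 of 8 were below the control median, and mouse 6 was just below the lowest control mouse. The means were 3550.0 ± 925 and 2898 ± 562 (SD, n = 8 each), a log2 fold change of -0.29 (SE 0.15, 95% CI -0.61 to 0.03), with an unadjusted p of 0.0706 and an adjusted p of 1.00 by edgeR's quasi-likelihood test.

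The alpha subunit of succinyl-CoA ligase varied little between mice, with coefficients of variation of 14.3% in control and 7.66% in MCU-KO mice. Suclg1 (chromosome 6, 73248382 to 73276911, plus strand) had 4652, 5295 and 7096 normalized counts (lowest, median, highest) in control mice and 4916, 5444 and 6169 in MCU-KO mice. All MCU-KO mice again fell inside the control range. With means of 5395 ± 769.9 and 5428 ± 416 (SD, n = 8 each), the log2 fold change was 0.01, and its interval allowed a change between 0.879-fold and 1.15-fold.

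Sucla2, the ATP-forming beta subunit (chromosome 14, 73525319 to 73596142, plus strand), had 3679.6, 5671 and 7110.2 normalized counts (lowest, median, highest) in control mice and 4586, 5577 and 6407 in MCU-KO mice. The MCU-KO mice were closer together and inside the control range. The means were 5733 ± 1055 and 5406 ± 630.5 (SD, n = 8 each), and the log2 fold change was -0.08 (95% CI -0.32 to 0.15). It lay between -0.15 (without control mouse 3) and -0.033 (without control mouse 5) when each mouse was left out.

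Suclg2, the GTP-forming beta subunit (chromosome 6, 95473009 to 95718800, minus strand), had the lowest level of the members and the widest spread between mice. Its raw counts in control mice 1 to 8 were 54, 130, 132, 50, 0, 0, 173 and 7, and in MCU-KO mice 1 to 8 they were 0, 81, 20, 70, 316, 63, 75 and 207. It was thus at 0 in 2 control mice and 1 MCU-KO mouse, and above 100 counts in 3 control mice and 2 MCU-KO mice. The mean normalized counts were 64.3 ± 66.1 in control and 110.5 ± 118 in MCU-KO mice (SD, n = 8 each), coefficients of variation of 103% and 107%. The log2 fold change was 0.77 with an interval from -1.64 to 3.18, so neither a rise nor a fall of 3-fold could be told from no change. It was 0.36 without MCU-KO mouse 5, 0.40 without MCU-KO mouse 8 and 1.20 without control mouse 7, and limma-voom gave 1.26.

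Glial markers had counts in these libraries, so the values of Suclg2 were set beside them. Among MCU-KO mice, the highest astrocyte and oligodendrocyte sums were those of mouse 4 (1123 and 5929 CPM) and mouse 6 (1077 and 5074 CPM), where Suclg2 was 64.6 and 57.1 normalized counts. The highest Suclg2 levels, 307 and 286 normalized counts, were in MCU-KO mice 5 and 8, with astrocyte sums of 849 and 910.5 CPM and oligodendrocyte sums of 4362 and 4134 CPM. Among control mice, both sums were lowest in mouse 7 (470.4 and 2476 CPM), which had the highest Suclg2 (178 normalized counts), and highest in mouse 3 (890.2 and 5019 CPM), which had 119.7. Of the 8 astrocyte markers, 7 had counts in every mouse. A glial covariate in edgeR was not these sums but the mean log2 CPM of the astrocyte, oligodendrocyte and microglial markers. With it the log2 fold change of Suclg2 was 0.65. The part of glial RNA in the Suclg2 level of single mice was not tested.

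Per kilobase of exon, the ATP-forming beta subunit exceeded the GTP-forming one in all 16 mice. In control mice Sucla2 stood at 1438 and Suclg2 at 13.9 normalized counts per kilobase, the 92.7 and 9.14 percentiles of the genes tested. The log2 ratio of Sucla2 to Suclg2 ran from 5.06 to 9.75 in the 6 control mice with Suclg2 counts and from 4.40 to 8.38 in the 7 such MCU-KO mice. In the mice at 0 the ratio is set by the pseudocount of 1 and is not a measurement. With them the mean in control mice was 8.26 ± 3.29 (SD, n = 8; 8.52 with a pseudocount of 0.5), above 0 in 8 of 8 (exact sign-flip permutation test of the mean, two-sided, p = 0.0078, the smallest that 8 mice allow; adjusted over 3 ratios, 0.0234). The median of the control mice was 7.15, a 142-fold excess. For it the exact test of the median gave p = 0.0625, the smallest that this test allows with 8 mice. The test of the median could therefore not pass the threshold whatever the excess, and it decides nothing here. The mean in MCU-KO mice was 6.97 ± 2.54 (SD, n = 8).

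The ratio did not differ between genotypes beyond the spread of the mice. MCU-KO minus control was -1.29 on the log2 scale, with a 95% interval from -4.46 to 1.89 (exact permutation test, two-sided, p = 0.393, or 0.932 adjusted over 3 ratios). The difference and its interval include the 2 control mice and 1 MCU-KO mouse at 0, whose ratios are set by the pseudocount. Without each mouse in turn the difference lay between -2.07 and -0.59. Suclg2 made up between 0% and 2.89% of the beta subunit counts per kilobase in control mice (median 0.693%) and between 0% and 4.50% in MCU-KO mice (median 1.06%). In the 3 mice where Suclg2 was at 0, a floor of 3 counts allows a share of up to 0.0336% (control mouse 5), 0.0399% (control mouse 6) and 0.0542% (MCU-KO mouse 1). Sucla2 was then at least 2972-fold, 2508-fold and 1843-fold higher. These floors cover counting error only.

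**Figure D2:**
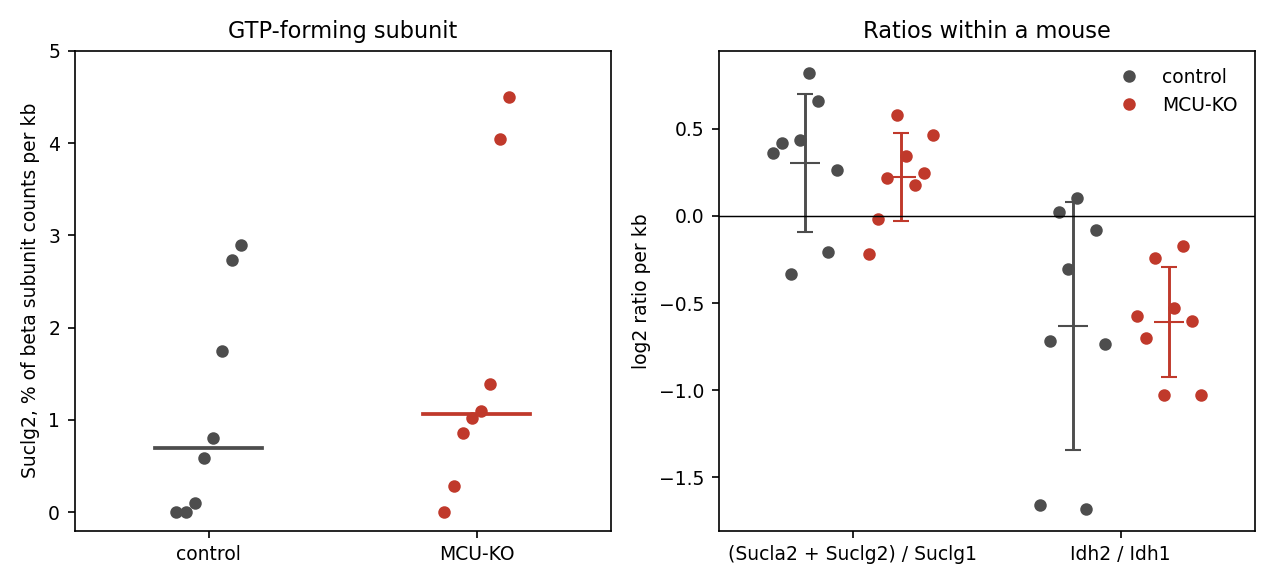
Left, share of Suclg2 in the beta subunit counts per kilobase of exon (percent) in each mouse, with bars at the medians of 0.693% in control and 1.06% in MCU-KO mice. Right, log2 ratios per kilobase of Sucla2 plus Suclg2 to Suclg1 and of Idh2 to Idh1 in each mouse, with mean and SD. All values lie between -1.68 and 0.82.

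The sum of both beta subunits was close to the alpha subunit that they share. The log2 ratio per kilobase of Sucla2 plus Suclg2 to Suclg1 was 0.30 ± 0.40 in control mice (SD, n = 8; above 0 in 6 of 8; exact sign-flip permutation test, two-sided, p = 0.0703) and 0.22 ± 0.25 in MCU-KO mice (SD, n = 8; above 0 in 6 of 8; exact p = 0.0547). The difference of -0.08 between genotypes had a 95% interval from -0.43 to 0.28 (exact permutation test, two-sided, p = 0.645). The sign of this ratio rests on the transcript length used: with the longest coding transcript of each gene, a length chosen after seeing the data, it became -0.47 in control mice.

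The NADP-dependent isocitrate dehydrogenases had, in control mice, the widest spread of the members after Suclg2. Idh1 (chromosome 1, 65158616 to 65186500, minus strand) had 437, 1096 and 1824 normalized counts (lowest, median, highest) in control mice and 1016, 1412 and 1669 in MCU-KO mice. Idh2 (chromosome 7, 80094846 to 80115392, minus strand) had 272, 656 and 1147 in control mice and 595, 891 and 1027 in MCU-KO mice. For both genes the MCU-KO mice lay inside the control range and the lowest values were control mice.

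The coefficient of variation fell from 34.4% in control to 16.2% in MCU-KO mice for Idh1 and from 42.1% to 18.3% for Idh2, a difference in spread that was not tested. The means were 1104 ± 379 and 1378 ± 223 for Idh1 and 682 ± 287 and 847 ± 155 for Idh2 (SD, n = 8 each). The log2 fold changes were 0.32 (95% CI -0.11 to 0.75) and 0.31 (95% CI -0.22 to 0.84). That of Idh1 was 0.20 without control mouse 3, and that of Idh2 was 0.20 without control mouse 6.

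Per kilobase, the cytosolic Idh1 tended above the mitochondrial Idh2 in control mice, with a log2 ratio of Idh2 to Idh1 of -0.63 ± 0.71 (SD, n = 8; below 0 in 6 of 8; exact sign-flip permutation test, two-sided, p = 0.0469; adjusted over 3 ratios, 0.0703). It did not pass after adjustment, and with other definitions of gene length the unadjusted p was 0.219 or higher. In MCU-KO mice the ratio was -0.61 ± 0.31 (SD, n = 8) and below 0 in all 8 (exact sign-flip permutation test, two-sided, p = 0.0078, not adjusted). The genotypes differed by 0.02 (95% interval -0.56 to 0.61; exact permutation test, two-sided, p = 0.932).

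Dld (chromosome 12, 31331277 to 31351453, minus strand) had 1268, 2309 and 3288 normalized counts (lowest, median, highest) in control mice and 1953, 2468 and 4243 in MCU-KO mice. The genotypes overlapped, with MCU-KO mouse 4 alone above all control mice. The means were 2279 ± 747 and 2604 ± 744 (SD, n = 8 each), and the log2 fold change was 0.19 (SE 0.20, 95% CI -0.22 to 0.61). Leaving out each mouse moved it between 0.058 (without MCU-KO mouse 4) and 0.29 (without control mouse 2).

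**Figure D3:**
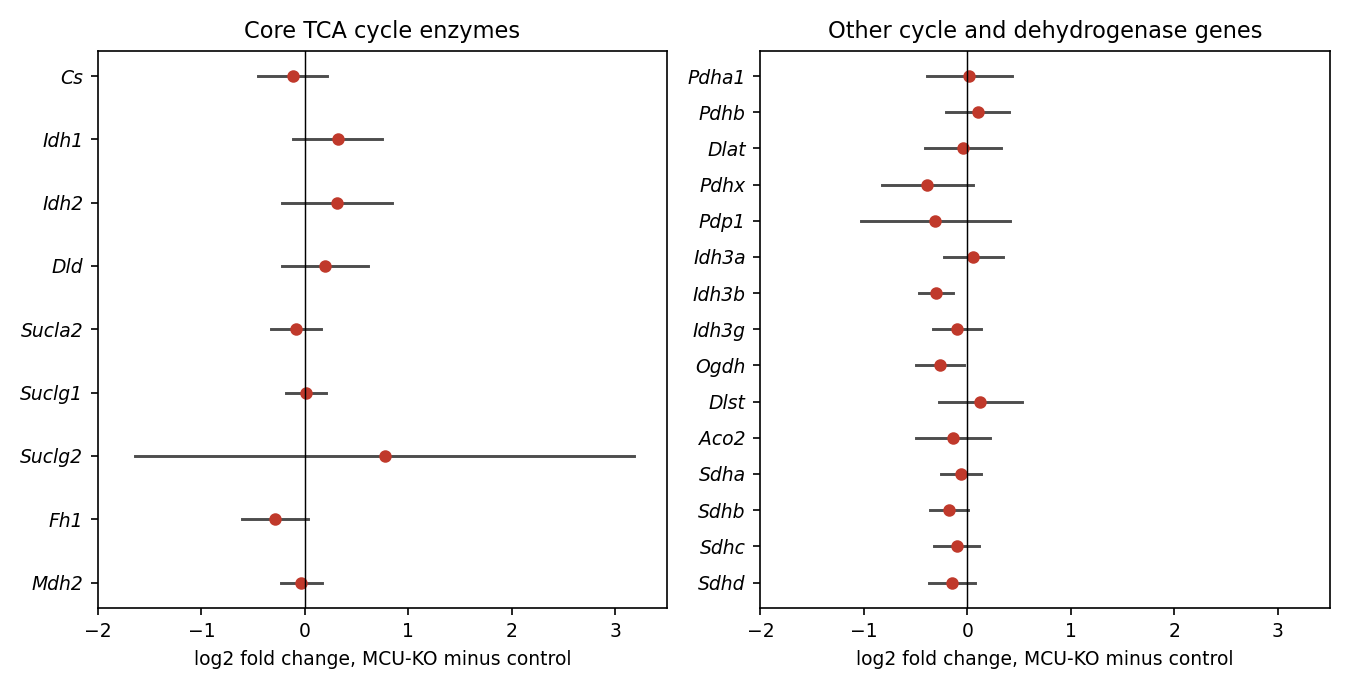
Log2 fold change of MCU-KO over control (points) with 95% confidence intervals (lines) by edgeR, for the 9 members on the left and 15 other genes of the cycle and its Ca2+-responsive dehydrogenase complexes on the right. All member intervals include 0, that of Suclg2 runs from -1.64 to 3.18, and those of Idh3b and Ogdh on the right lie below 0.

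Levels per kilobase of exon placed Mdh2 highest and Suclg2 lowest of the members. In control mice Mdh2 led with 4849 normalized counts per kilobase, followed by Sucla2 with 1438, Suclg1 with 1169 and Fh1 with 1047. Dld with 619 and Cs with 614 came next, then Idh1 with 398, Idh2 with 264 and Suclg2 with 13.9. Of the 8 pairs of neighbours in the order of mean log2 levels, 4 differed in the same direction in 8 of 8 mice (exact sign-flip permutation test, two-sided, adjusted p = 0.0156 each): Mdh2 over Sucla2, Fh1 over Cs, Dld over Idh1 and Idh2 over Suclg2. The other pairs did not differ beyond their spread. Their log2 differences were 0.29 for Sucla2 over Suclg1, 0.19 for Suclg1 over Fh1, 0.03 for Cs over Dld and 0.63 for Idh1 over Idh2. The middle of the order rests on the length used. With the longest annotated or the longest coding transcript, Fh1 no longer stood above Cs beyond the spread (differences of 0.18 and 0.14, 6 of 8 mice each), whereas Cs stood above Dld in 8 of 8 mice (0.44 and 0.48; exact sign-flip permutation test, two-sided, adjusted p = 0.0125 each). Suclg1 stood above Fh1 in 8 of 8 mice with the longest annotated transcript (0.57, exact adjusted p = 0.0125) and above Sucla2 in 7 of 8 with the longest coding transcript (0.48, exact adjusted p = 0.0208). Mdh2 at the top, Dld over Idh1 and Idh2 over Suclg2 passed under all 3 lengths.

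**Figure D4:**
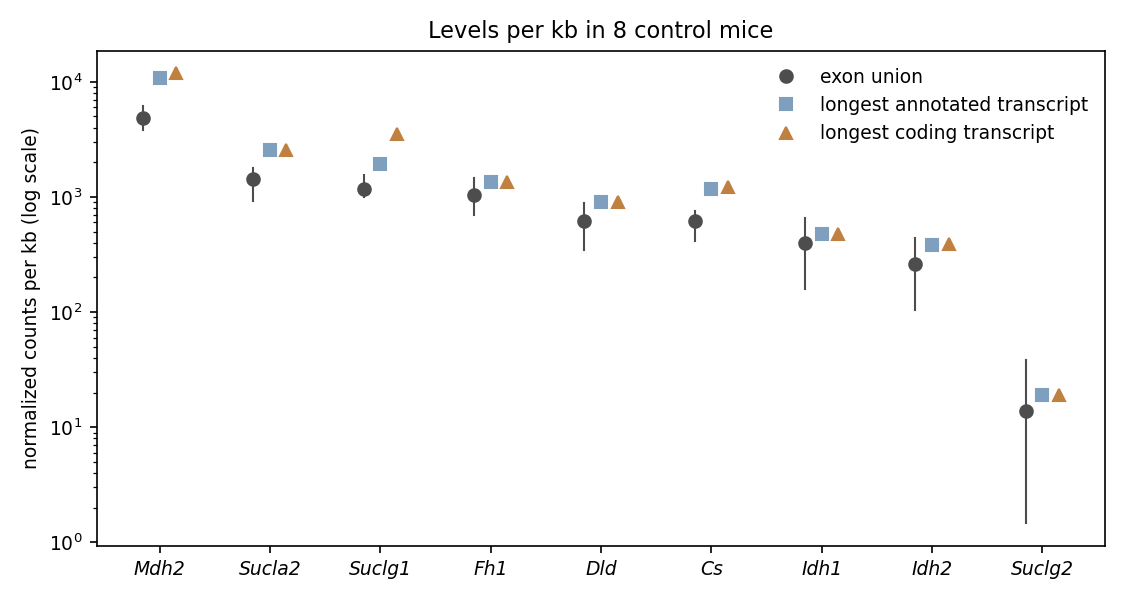
Mean level of the 9 members in control mice in normalized counts per kilobase (log axis) under 3 definitions of gene length; vertical lines give the range over the control mice with the exon union, without the 2 mice in which Suclg2 was at 0. Mdh2 is highest and Suclg2 lowest under each definition, at 4849 and 13.9 with the exon union.

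The members also differed in how steady their ratios to each other were from mouse to mouse. The SD of the log2 ratio between 2 members over the 16 mice was smallest for Suclg1 and Mdh2, at 0.129. It lay between 0.308 and 0.617 for the other pairs without Suclg2 and between 2.45 and 2.56 for the pairs with it. Among the genes tested that are not members, the SD against Mdh2 was smallest for Mdh1, the cytosolic malate dehydrogenase (0.113 over 16 mice), followed by Dusp26 (0.125). The genes closest to Suclg1 were Ccdc92 (0.105) and Atp6v1g2 (0.112), those closest to Sucla2 were Rps9 (0.184) and Eif4a2 (0.187), and those closest to Cs were Mat2a (0.190) and Ptpa (0.236). The median of this measure over all genes lay between 0.700 and 0.767 for the 4 members. All values come from the same 16 libraries, and the measure is given as a description. It is small for 2 genes that each vary little, whether or not they change together. Suclg1 and Mdh2 had the lowest coefficients of variation of the members in control mice (14.3% and 14.2%).

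The rest of the cycle was measured in the same libraries. Of 34 other genes of the cycle, its Ca2+-responsive dehydrogenase complexes and linked reactions, 32 were tested, 0 passed edgeR's test after adjustment, and 3 had an unadjusted p under 0.05, all lower in MCU-KO mice. Their fitted fold change was below 0 for 23 of 32 (71.9%, against 49.6% of all genes), with a median of -0.09 on the log2 scale. Among the members 4 of 9 were below 0.

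The 3 genes were Idh3b, a subunit of the NAD-dependent isocitrate dehydrogenase, Ogdh, the oxoglutarate dehydrogenase, and Pcx, the pyruvate carboxylase that refills oxaloacetate. Idh3b had 9206 ± 1026 normalized counts in control and 7476 ± 333 in MCU-KO mice (SD, n = 8 each) without overlap, a log2 fold change of -0.30 (95% CI -0.46 to -0.14) with an adjusted p of 0.316 by edgeR and 0.0112 by DESeq2. Ogdh had a log2 fold change of -0.27 (95% CI -0.49 to -0.04) and Pcx of -0.52 (95% CI -1.04 to -0.00). The other genes of highest level per kilobase were Mdh1, at 20327 normalized counts per kilobase in control mice with a log2 fold change of -0.08, and Sdhb, a subunit of succinate dehydrogenase, at 6592 with -0.18.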

How the data were processed

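Ribosome-bound mRNA was sequenced from 16 mice, 8 per genotype. The authors trimmed reads, aligned them with STAR to mm10 and counted whole reads per Ensembl gene with HTSeq; the deposited values are raw counts, 1 table per mouse. Versions, strand setting and annotation release are not given in the sources used here. Symbols, positions and lengths came from GENCODE M21 (24991 of 25006 genes matched). No column of an unlisted sample was present (0).

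Counts were filtered with filterByExpr (12390 genes kept), scaled by TMM and tested with edgeR 4.0.16 (quasi-likelihood, genotype as the single term, Benjamini-Hochberg over all genes tested, threshold 0.05) in R 4.3.3. DESeq2 1.42.0 and limma 3.58.1 were alternatives. Scripts were tested on simulated data with 200 changed genes. Normalized counts are raw counts divided by the size factor that DESeq2 estimated for each library. Ratios per kilobase used the union of exons and a pseudocount of 1, with exact permutation tests over mice. A pair of mice that share a number in the labels are different animals, and p-values measure the spread between mice. No 2 libraries of the same genotype agreed within sampling noise, and pairs across genotypes were not compared. Library totals ran from 14129527 to 22016362 counts, and counting intervals cover counting error only. For every member that error was below the spread between control mice. It was 1.63% against a coefficient of variation of 21.5% for Cs and 12.1% against 103% for Suclg2.

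The members and gene lists were chosen with earlier results of these data known. Genes named beside the members were Mcu and, in the other lists, the 3 of smallest p and the 2 of highest level per kilobase. The 3 were taken because none passed adjustment. Named too were the 2 genes with the smallest SD of the log2 ratio to each of Cs, Suclg1, Sucla2 and Mdh2. No gene of the 6 marker lists passed edgeR's test, and 1 astrocyte marker had an unadjusted p under 0.05. Microglial, endothelial and other neuronal markers summed to 46.4 to 145, 10.8 to 35.1 and 150.0 to 287 CPM in control and 41.5 to 262, 4.68 to 22.3 and 112 to 392 CPM in MCU-KO mice. The alternatives covered normalization, the filter, glial and Xist covariates, a replicate block, gene length, the pseudocount and leaving out each mouse. A ninth MCU-KO mouse named in the study was not analysed here.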

Additional observations from a re-analysis of the deposited data

Results flagged for a closer look

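In 2 of 24 groups of 8 mice that were examined, the most extreme mouse stood apart from its group (the gap to its nearest neighbour, as a share of the whole range, was above Dixon's critical value), where chance gives about 1.2. The first was Dld in MCU-KO mice: mouse 4 had 4242.8 normalized counts, with a gap of 0.617 of the range. The same mouse had the highest astrocyte and oligodendrocyte marker sums of the series (1123 and 5929 CPM), whereas MCU-KO mouse 6, second in both sums (1077 and 5074 CPM), had 2005 normalized counts of Dld, the second lowest of its group. With the glial covariate in edgeR, which also takes in microglial markers, the log2 fold change of Dld was 0.09 instead of 0.19. The part of glial RNA in the value of mouse 4 was not tested. The second was Suclg1 in control mice, where mouse 7 had 7096.3 normalized counts with a gap of 0.626 of the range. Without that mouse, the log2 fold change of Suclg1 between genotypes was 0.078 instead of 0.01, and it did not pass the threshold.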

How the results depend on the processing

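The 9 members gave 224 values under the alternatives. None passed the threshold after adjustment, and 9 changed sign, all of them values of Suclg1 or Mdh2 near 0. An unadjusted p under 0.05 was reached by 5 of the 224 values, Idh1 without control mouse 1 (log2 fold change 0.46) and Fh1 without control mouse 3, 5 or 6 or MCU-KO mouse 1. Leaving out each mouse moved the log2 fold change of Suclg1 between -0.018 and 0.078 and that of Mdh2 between -0.073 and 0.025, and a glial covariate gave 0.019 for Mdh2. Over all genes, 22 were called, against 90 by DESeq2, 14 with the replicate block and 18 to 24 without each mouse in turn. Among the other TCA cycle genes DESeq2 called 1 (Idh3b). Same-numbered mice did not deviate together (8 pairs, correlations between -0.06 and 0.03, none best with its own number), so the block has no basis in the design; it changed no member's call. Suclg2 had no value where 10 counts were required in every mouse.

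The log2 ratio of Sucla2 to Suclg2 in control mice was 7.15 as a median over mice (exact p = 0.0625, the smallest that a test of the median allows with 8 mice). Its difference between genotypes lay between -2.07 and -0.59 without each mouse. The ratio of the beta sum to Suclg1 in control mice was 0.40 with the longest annotated transcript (exact p = 0.0313), -0.47 with the longest coding transcript, a length chosen after seeing the data (exact p = 0.0156), and 0.23 to 0.39 without each mouse, passing the threshold without control mouse 3 (0.39) or 7 (0.38). The ratio of Idh2 to Idh1 in control mice was -0.37 with the longest annotated transcript (exact p = 0.219). With the longest coding transcript it was -0.33 (exact p = 0.258). As a median it was -0.51 (exact p = 0.0625, again the smallest that a test of the median allows with 8 mice). Without each mouse it lay between -0.74 and -0.48, missing the threshold without control mouse 1, 2, 4, 6, 7 or 8. Its difference between genotypes was -0.078 as a median and -0.13 to 0.13 without each mouse. The shifts with transcript length follow from the length alone, and the cause of the others was not tested. Xist had 0 counts in 6 of 8 mice of each genotype, so its covariate rests on few counts. The wide interval of Suclg2 goes with its spread between mice (coefficients of variation of 103% and 107%).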
